A study of Mus musculus with 24 samples.

Results

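The comparison set microglia of saline-injected Serpine2 knockout mice (3 libraries) against microglia of saline-injected control mice (3 libraries), 6 of the 24 libraries of the study. The members were chosen by library title alone, and all genes were described. Knockout mice were adult Serpine2-/- animals. Controls were their littermates that kept 1 or more working Serpine2 alleles, so a control may have been wild type or heterozygous. Libraries 1 and 3 of each genotype came from male mice and library 2 of each from a female mouse, per the labels. The other microglia libraries came from mice given lipopolysaccharide (LPS), a bacterial outer membrane component that sets off innate immune responses, and 12 libraries held astrocytes. Microglia were freed from perfused whole brain by douncing and Percoll, and were caught on dishes coated with antibodies (immunopanning). The allele is a germline loss, so every cell of the knockout mouse lacked the gene, not only microglia. The labels do not say which mice were sibling pairs, or whether a library held cells of more than 1 mouse.

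Serpine2 encodes protease nexin-1, a secreted serine protease inhibitor that blocks thrombin, urokinase and tissue plasminogen activator. Microglia are the resident macrophages of the brain, and at rest they express surface proteins such as P2RY12 and TMEM119. Neutrophils are short-lived blood cells that kill microbes with proteins stored in granules. Primary granules hold myeloperoxidase and serine proteases, specific and tertiary granules hold lactoferrin, cathelicidin and gelatinase, and the cytosol is rich in the calcium-binding pair S100A8 and S100A9 (calprotectin).

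Counts assigned to genes came to 6102404 to 10710602 a library in the knockout group and to 5354865 to 13584388 in the control group, with 28860 to 31705 genes detected in the 6 libraries. Reads assigned to no annotated gene made up 63.9% to 70.4% of the reads in knockout libraries and 56.2% to 72.7% in control libraries. Levels are given as CPM, the counts of a gene brought to a common library total and scaled by the trimmed mean of M-values (TMM). The 12 microglia markers summed to 2447 to 5690 CPM in knockout libraries and 2955 to 5762 CPM in control libraries, and all 12 were detected. The 12 neuron markers summed to 6769 to 7784 CPM in knockout libraries and 6901 to 9634 CPM in control libraries, so RNA of other brain cells was present in both groups. On principal components of log2 CPM, the first component (40.1% of the variance) set control 3 apart from control 2. The second (29.7%) set knockout 1 and control 1 apart from the other 4 libraries, and neither separated the genotypes. The third (11.7%) placed the 3 knockout libraries below the 3 control libraries, with knockout 3 (-0.068) next to control 3 (-0.0623). Knockout 1 and control 1 resembled each other more than either resembled its own group, with a mean chi-square per gene of 3.46, against 14.7 to 102 for the other pairs of libraries. That value is above sampling noise, so they were kept as separate libraries. The sex-linked transcripts matched the labels in 6 of the 6 libraries. Among all 12 microglia libraries they went against the label in 1, LPS control 1, so values from LPS are given below with and without it.

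Serpine2 itself (chr1:79794197-79861180, minus strand, GENCODE M21 on GRCm38) stood at 20.1, 17.6 and 20.7 CPM in the 3 knockout libraries, against 62.2, 46.6 and 96.5 CPM in the 3 control libraries. Every knockout library lay below every control library, yet the transcript was not at 0. The log2 fold change, knockout over control, was -1.82 (SE 0.27), with an adjusted p of 0.191 by edgeR's quasi-likelihood test with Benjamini-Hochberg adjustment over 22230 genes. The gene had the smallest p of all genes tested without passing the threshold of 0.05. It did pass by DESeq2 (adjusted p = 6.19e-06), by edgeR with no filter on low counts (adjusted p = 1.05e-07) and by edgeR without control 2 (adjusted p = 0.0244). With no filter the SE was 0.26, near that with the filter. The unadjusted p of edgeR's quasi-likelihood test was nevertheless 7.82e-12 without the filter and 8.58e-06 with it. The p without the filter is therefore not read as further support. Counts in the knockout may come from parts of the gene outside the deleted stretch, which the labels do not describe, so the level checks the labels only in its direction. The same contrast gave -1.90 in LPS microglia and -2.88 in saline astrocytes, where Serpine2 was the 1 gene called of 18188 tested (0.0055%).

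Across the transcriptome, 0 of 22230 genes (0%) passed an adjusted p of 0.05. At an unadjusted p under 0.05 there were 351 genes, of which 205 were higher in knockout (0.922%) and 146 lower (0.657%). DESeq2 called 1 gene, Serpine2. After Serpine2, the next smallest adjusted p was 0.9997, so none of the genes described below passed the test, and their values are given as measurements of these 6 libraries. The median log2 fold change over all genes was -0.05, and its lower and upper quartiles were -0.24 and 0.12. All 3 knockout libraries lay above all 3 control libraries for 563 genes (2.53%) and below them for 380 genes (1.71%). The fold change was above 0 for 9329 genes (42%).

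**Figure D1:**
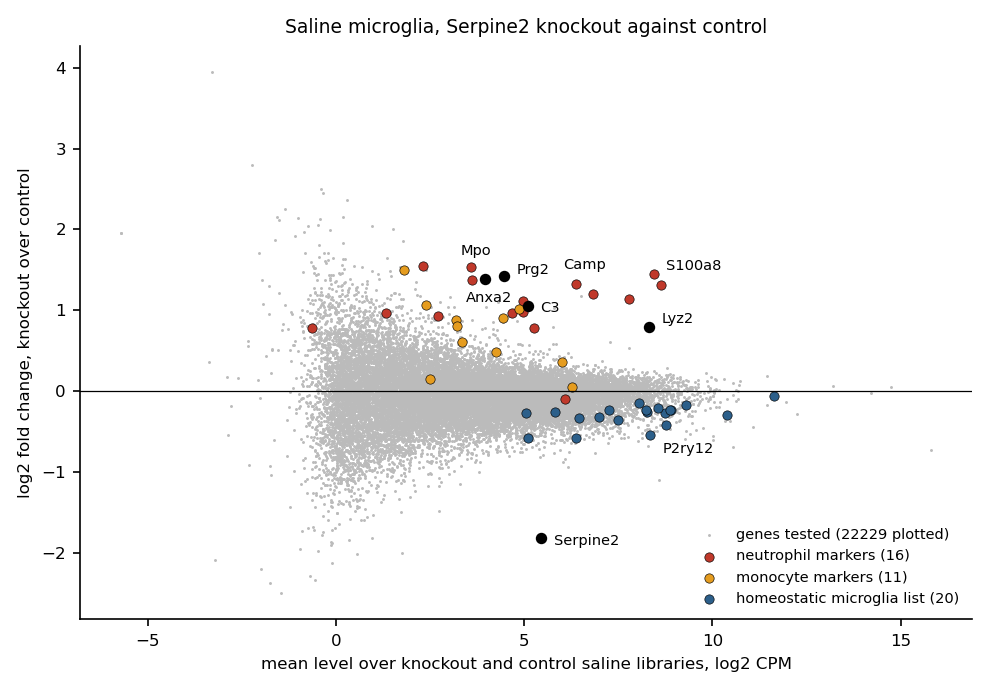
Fitted log2 fold change of knockout over control (y axis) against the mean level of the saline libraries in log2 CPM (x axis), 1 point per gene, with 3 lists coloured and 5 further genes in black. Of 16 neutrophil markers (red), 15 lay above 0 and Csf3r at -0.10, while the 20 homeostatic microglia genes (blue) lay between -0.58 and -0.05 and Serpine2 at -1.82.

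Large differences were few and mostly in 1 direction. Of 12857 genes averaging at least 8 CPM, 22 differed by more than 2-fold, 18 higher and 4 lower in knockout. The 18 were dominated by genes of neutrophils and other blood leukocytes: Mpo, S100a8, S100a9, Prg2, Cxcr2, Camp, Ltf, Lcn2, Ngp, Mmp9 and Chil3 stood among them. The others were Anxa2, S100a6, C3, Ttr (transthyretin, made by choroid plexus), Top2a, Ifitm6 and Chil1. The 4 lower genes were Serpine2, Fbxl15, Zfp768 and an identifier with no symbol, and of these only Serpine2 had groups that did not overlap.

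Without the filter on low counts, edgeR's quasi-likelihood test called 22 of 40320 genes (0.0546%), 19 higher and 3 lower. Of those, 9 were members of the neutrophil and monocyte lists: S100a8 (adjusted p = 9.55e-07), S100a9 (adjusted p = 3.43e-05), Camp (adjusted p = 2.6e-04), Lcn2 (adjusted p = 9.1e-04), Ltf (adjusted p = 0.00114), Ngp (adjusted p = 0.00116), Mpo (adjusted p = 0.00547), Cxcr2 (adjusted p = 0.0093) and Mmp9 (adjusted p = 0.0344). These calls rested on that setting alone, since each gene had an adjusted p of 0.9997 with the filter. The smallest adjusted p without the filter, 6.26e-17, was that of Gh, which had reads in knockout 3 and control 3 alone. A small p there thus did not require reads in every library. S100a9 had an unadjusted p of 4.25e-09 without the filter and 0.0171 with it, at log2 fold changes of 1.33 and 1.31.

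The calprotectin genes S100a8 and S100a9 had the highest levels among the genes higher in knockout without overlap, and other genes of mature neutrophils were lower in level. S100a8 stood at 354, 464 and 713 CPM in knockout, against 180.4, 204 and 178 CPM in control. Its 2 knockout libraries with the most, 2 and 3, each exceeded the highest control by more than 2-fold, and the groups did not overlap (log2 fold change 1.45, SE 0.33, unadjusted p = 6.24e-04). S100a9, its partner, stood at 416, 378 and 914 CPM in knockout, against 238, 302 and 149.996 CPM in control. Knockout 3 was far above the other 5 libraries, and the log2 fold change was 1.31 (SE 0.49, unadjusted p = 0.0171). Cxcr2, the receptor through which neutrophils follow CXC chemokines, stood at 18.4, 10.2 and 24.4 CPM in knockout, against 8.64, 6.67 and 5.17 CPM in control. Mcemp1, a membrane protein of mast cells and other myeloid cells, averaged 15.97 ± 2.71 CPM in knockout and 8.72 ± 1.58 CPM in control (SD, n = 3 each). Csf3r, the G-CSF receptor, did not follow them: it stood at 91.3, 52.7 and 53.9 CPM in knockout, against 81.2, 42.3 and 87.5 CPM in control, with overlapping groups. Of the 13 tested genes of this list, 12 were higher, with a median log2 fold change of 0.93. Of these, 5 were without overlap (38.5%, against 2.53% of all genes). The median was 0.88 over the 11 that remain without Stfa2 and BC100530, which had no read in the control libraries. The stefin genes are near-identical copies, so their counts are uncertain.

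Specific and tertiary granule genes were the most even: 13 of 13 tested members were higher in knockout, with a median log2 fold change of 1.11. Of these, 11 were without overlap (84.6%, against 2.53% of all genes). At an unadjusted p under 0.05 there were 10 (all genes, higher: 0.922%). Camp, which encodes the antimicrobial peptide cathelicidin, stood at 89.1, 139 and 127 CPM in knockout, against 48.0, 38.0 and 55.5 CPM in control. Its log2 fold change was 1.33 (SE 0.32, unadjusted p = 9.34e-04). Ngp, which encodes neutrophilic granule protein, stood at 197, 329 and 384 CPM in knockout, against 120.4, 133 and 159 CPM in control. Ltf, the iron-binding lactoferrin, stood at 119, 159.7 and 196 CPM in knockout, against 69.8, 85.4 and 52.5 CPM in control. Lcn2, a lipocalin that withholds iron from bacteria by binding their siderophores, stood at 97.4, 120.1 and 164 CPM in knockout, against 52.9, 56.3 and 58.98 CPM in control. In each of these 4 genes the lowest knockout library was knockout 1. Mmp9 (gelatinase B) stood at 34.5, 38.4 and 55.3 CPM in knockout, against 15.03, 22.8 and 21.2 CPM in control, and Mmp8 (neutrophil collagenase) at 41.3, 38.3 and 45.4 CPM, against 25.2, 21.9 and 16.5 CPM. The remaining members included Hp (haptoglobin, log2 fold change 0.91), without overlap. Another member, Chil3 (1.02), had overlapping groups.

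The promoters of 4 of these genes are shown as examples. In all 4, every knockout library lay above every control library, though the order within the groups differed between the genes. They are the 250 bases before the annotated start, 5′ to 3′ on the strand of the gene, from RefSeq on GRCm38.p6. The bases in capitals match the C/EBP core TTNNGNAA or its reverse complement TTNCNNAA, the site of the CCAAT/enhancer-binding proteins, a family whose member C/EBP epsilon is required for specific granules. Camp lies at chr9:109849457-109849706 (minus strand), Ngp at chr9:110419558-110419807 (plus strand), Ltf at chr9:111019042-111019291 (plus strand) and Lcn2 at chr2:32387740-32387989 (minus strand).
Camp: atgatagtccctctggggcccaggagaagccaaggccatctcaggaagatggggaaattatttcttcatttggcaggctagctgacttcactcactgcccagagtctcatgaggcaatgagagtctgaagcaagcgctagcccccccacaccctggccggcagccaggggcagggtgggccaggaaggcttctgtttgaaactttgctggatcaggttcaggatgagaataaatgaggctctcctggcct
Ngp: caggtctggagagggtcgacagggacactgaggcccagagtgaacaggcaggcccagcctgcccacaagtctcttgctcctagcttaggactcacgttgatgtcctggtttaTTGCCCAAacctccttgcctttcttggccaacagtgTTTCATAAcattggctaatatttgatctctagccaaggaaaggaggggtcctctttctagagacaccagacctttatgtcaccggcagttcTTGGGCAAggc
Ltf: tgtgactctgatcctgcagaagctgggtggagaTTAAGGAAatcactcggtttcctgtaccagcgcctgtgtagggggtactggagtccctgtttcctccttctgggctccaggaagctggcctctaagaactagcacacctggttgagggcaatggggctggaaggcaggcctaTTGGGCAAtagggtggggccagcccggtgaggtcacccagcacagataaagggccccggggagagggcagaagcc
Lcn2: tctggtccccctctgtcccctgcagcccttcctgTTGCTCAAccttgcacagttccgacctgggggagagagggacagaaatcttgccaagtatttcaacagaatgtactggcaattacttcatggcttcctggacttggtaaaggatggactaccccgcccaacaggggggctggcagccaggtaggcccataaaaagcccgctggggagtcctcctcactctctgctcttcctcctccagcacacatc
Ngp held 3 matches, Ltf 2, Lcn2 1 and Camp 0, and overlapping matches were counted by their start. The 8-letter core occurred in 36.8% of 32851 promoter windows of the same length, and in 9 of the 10 windows that matched the 13 listed granule genes. The matches describe the letters of these windows. Cebpe, which encodes C/EBP epsilon, stood at 0.694, 2.22 and 2.64 CPM in knockout, against 0.691, 1.37 and 1.63 CPM in control, and Cebpa at 35.1, 16.4 and 15.3 CPM, against 29.9, 12.8 and 22.5 CPM. Both had overlapping groups. Of 10 tested members of the list of C/EBP and granule gene transcription factors, 9 were higher, 0 without overlap, with a median of 0.14. Without knockout 1 that median was -0.27, with 3 of 10 higher, and without control 2 it was -0.05, with 5 of 10 higher.

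**Figure D2:**
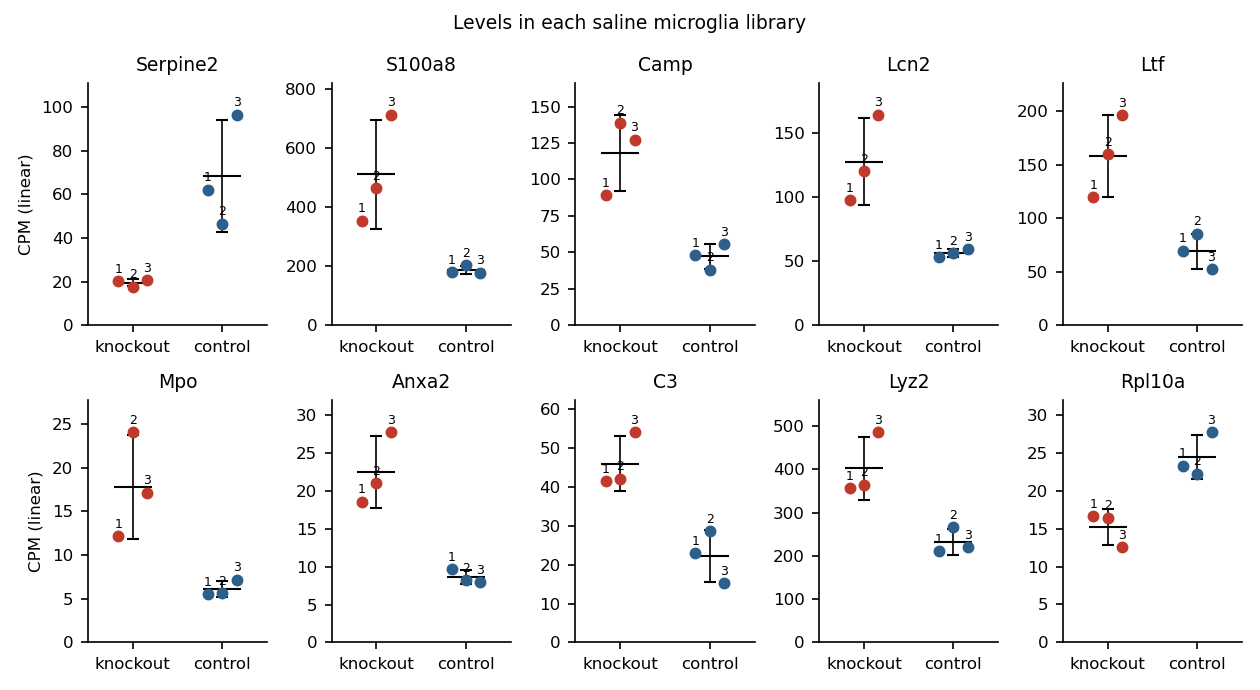
Level of 10 genes in each saline microglia library in CPM on linear axes, knockout left and control right, with the library number above each point and the mean ± SD of the 3 libraries in black. In 8 of the 10 panels all knockout points lie above all control points. Serpine2 and Rpl10a show the opposite order.

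Primary granule genes were low and more uneven. Mpo, which encodes the enzyme that makes hypochlorous acid, stood at 12.2, 24.1 and 17.1 CPM in knockout, against 5.53, 5.65 and 7.17 CPM in control. This was the largest fold in the higher direction among genes of at least 8 CPM without overlap (log2 fold change 1.54, SE 0.42, unadjusted p = 0.00251). Elane, which encodes neutrophil elastase, stood at 4.51, 9.14 and 9.08 CPM in knockout, against 2.07, 0.856 and 4.45 CPM in control. Ctsg (cathepsin G) was at 1.39, 2.12 and 2.76 CPM in knockout, against 1.04, 0.513 and 0.635 CPM in control. Prtn3 (proteinase 3) overlapped between the groups, with 3.12, 6.65 and 9.19 CPM in knockout, against 3.63, 1.20 and 2.63 CPM in control. The other 4 tested members, among them Serpinb1a, an inhibitor of these proteases, had log2 fold changes between -0.11 and 0.26. Of 8 tested, 6 were higher and 3 did not overlap (37.5%, against 2.53% of all genes), with a median of 0.81. Prg2, the major basic protein of eosinophil granules, stood at 16.7, 58.2 and 21.3 CPM in knockout, against 10.9, 10.8 and 14.2 CPM in control. Knockout 2 held more Prg2 than any other library, whereas knockout 3 was highest for 12 of the 13 specific and tertiary granule genes.

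The 3 lists together held 34 tested genes, of which 31 were higher in knockout, 19 of them without overlap (all genes: 2.53%). All 16 markers of neutrophils belong to these lists, and the part of neutrophil content in the values of the granule genes was not tested. The 16 markers, none at 0, summed to 1453 to 2661 CPM in knockout libraries and 787 to 925 CPM in control libraries. Whether the cells or the transcripts per cell were more numerous cannot be told apart in bulk RNA. Knockout 3 carried the most, and without it the median of the 16 markers was 0.93, against 1.13 with all libraries. The number higher at an unadjusted p under 0.05 was then 7 instead of 12. Over all genes that number was 185 of 23237 without knockout 3 and 205 of 22230 with all libraries.

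Genes of monocytes were also higher. Of 11 tested markers, 11 were higher, 5 without overlap (45.5%, against 2.53% of all genes), with a median log2 fold change of 0.81. Of the 12 listed, 2 also stand in the neutrophil lists above, Chil3 among them. Plac8 stood at 5.21, 4.52 and 5.86 CPM in knockout, against 1.90, 1.88 and 1.72 CPM in control (log2 fold change 1.5, SE 0.42, unadjusted p = 0.0027). Ly6c2, which marks classical monocytes, stood at 12.7, 9.42 and 13.2 CPM in knockout, against 7.43, 5.99 and 5.81 CPM in control, and has close relatives with which reads may be shared. Itgal, the alpha chain of the integrin LFA-1, stood at 10.4, 13.7 and 11.6 CPM in knockout, against 4.66, 8.04 and 7.62 CPM in control. Ccr2, the chemokine receptor that defines these monocytes, overlapped, with 6.25, 4.25 and 7.24 CPM in knockout, against 2.07, 9.58 and 4.36 CPM in control. The monocyte markers summed to 248 to 328 CPM in knockout libraries and 201 to 230.4 CPM in control libraries. Of the other marker lists, those of border macrophages, T and NK cells, B cells, erythroid cells, neurons, astrocytes, oligodendrocytes, their precursors, endothelium, pericytes, fibroblasts and choroid plexus had sums that overlapped between the groups.

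**Figure D3:**
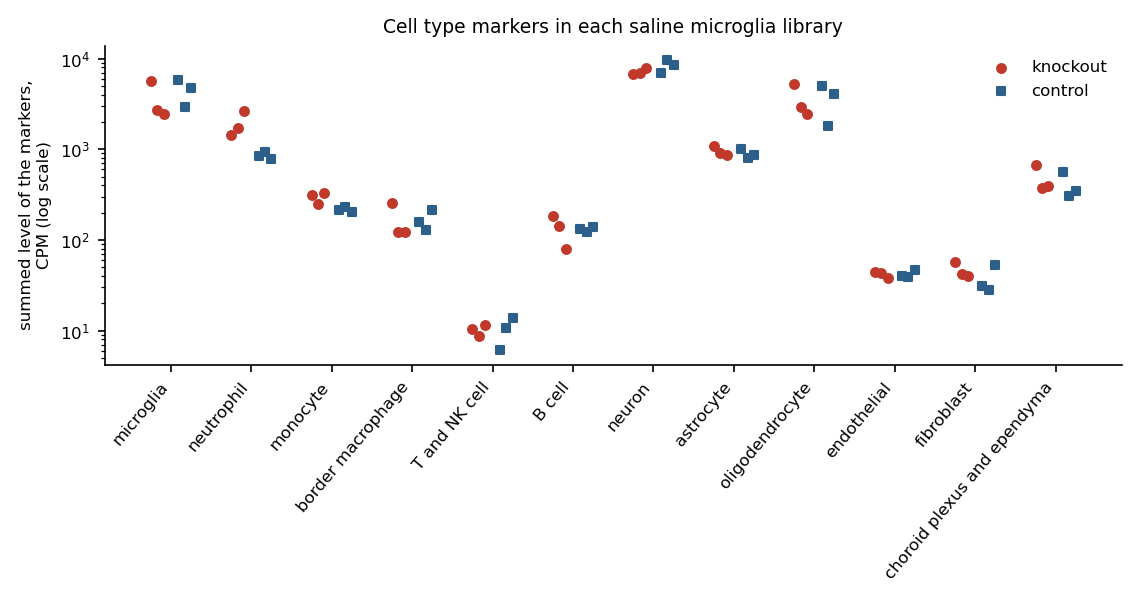
Summed level of the markers of 12 cell types in each saline microglia library, in CPM on a log axis, with knockout libraries as circles left of the control libraries as squares, each in the order 1, 2, 3. Neutrophil and monocyte sums lie higher in the knockout libraries without overlap. The microglia sum is highest in control 1 and knockout 1, followed by control 3.

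Antimicrobial genes that macrophages share went in both directions. Lyz2, the macrophage and neutrophil lysozyme, stood at 357, 365 and 487 CPM in knockout, against 211, 267 and 220.3 CPM in control (log2 fold change 0.79, SE 0.20, unadjusted p = 0.00159). Lyz1, its near-identical copy, was not tested, and reads may be shared between them. Slpi, an inhibitor of neutrophil elastase, stood at 8.85, 6.19 and 8.16 CPM in knockout, against 1.55, 3.59 and 2.90 CPM in control (log2 fold change 1.503, SE 0.37, unadjusted p = 9.79e-04). Pglyrp1, a peptidoglycan-binding protein of granules, averaged 36.7 ± 7.1 CPM in knockout and 19.9 ± 6.4 CPM in control (SD, n = 3 each). Mpeg1 (perforin-2, a pore former of macrophages) had a log2 fold change of -0.14 with overlapping groups. Of 10 tested members, 5 were higher and 5 lower. Without overlap were 4 (40%, against 2.53% of all genes): Lyz2, Slpi, Pglyrp1 and the low gene Acod1. The list median was 0.20. In a fit of the 6 saline libraries alone that median was -0.07. Among the subunits of the phagocyte oxidase, Rac2, the leukocyte form of the Rac GTPase, stood at 37.5, 36.5 and 35.8 CPM in knockout, against 24.5, 21.9 and 27.1 CPM in control, while Cybb, the catalytic subunit, overlapped (log2 fold change 0.85).

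The gene with the smallest p among those higher in knockout was Anxa2, which encodes a membrane-binding annexin that serves as a receptor for plasminogen and its activator. It stood at 18.6, 21.1 and 27.8 CPM in knockout, against 9.67, 8.22 and 7.99 CPM in control. The lowest knockout library held nearly 2-fold the highest control library (log2 fold change 1.39, SE 0.28, unadjusted p = 1.89e-04). S100a6, another calcium-binding protein of the S100 family, stood at 21.5, 22.6 and 37.7 CPM in knockout, against 11.2, 10.3 and 16.3 CPM in control. Lgals3, the galactose-binding lectin galectin-3, stood at 8.33, 10.9 and 11.5 CPM in knockout, against 4.66, 4.45 and 7.71 CPM in control. Of the 20 disease-associated microglia genes, which include Lgals3, 12 were higher and 2 did not overlap (10%, against 2.53% of all genes). The list median was 0.10. Apoe and Trem2, the first members of that list, had log2 fold changes of 0.53 and -0.16.

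Complement genes were not uniform. C3, the central component, stood at 41.5, 42.1 and 54.1 CPM in knockout, against 22.98, 28.6 and 15.2 CPM in control (log2 fold change 1.06, SE 0.24, unadjusted p = 4.51e-04). The other 14 tested members overlapped between the groups, and 5 of the 15 were higher, with a median of -0.15. C1qa and C1qb, subunits of the initiator C1q made by microglia, had log2 fold changes of -0.36 and -0.30.

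Genes of antigen presentation on MHC class II were 8 of 11 higher, 1 without overlap (9.1%, against 2.53% of all genes). Their median was 0.35. The median was 0.13 without control 2, 0.20 without knockout 1 and 0.53 without knockout 2. H2-Aa, a class II chain, stood at 70.8, 69.9 and 68.1 CPM in knockout, against 20.0, 40.6 and 58.9 CPM in control. The knockout libraries were nearly equal and the control libraries spread almost 3-fold, with control 1 the lowest. Cd74, the invariant chain, had control libraries in the same order, with 77.6, 57.2 and 71.8 CPM in knockout, against 27.1, 44.8 and 64.9 CPM in control, and its groups overlapped. MHC class I genes were 5 of 14 higher, with a median of -0.06.

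Cell cycle genes were split. Of 22 tested, 12 were higher and 10 lower, with 7 higher without overlap (31.8%, against 2.53% of all genes) and a median of 0.31, or 0.20 without knockout 3. Top2a, the topoisomerase that untangles replicated DNA, stood at 11.5, 10.6 and 13.4 CPM in knockout, against 6.74, 7.70 and 3.27 CPM in control (log2 fold change 1.04, SE 0.44, unadjusted p = 0.0322). Ube2c, which marks mitotic proteins for destruction, stood at 4.17, 3.42 and 4.595 CPM in knockout, against 1.90, 0.171 and 2.00 CPM in control. Cdc20 and Aurka, regulators of mitosis, had log2 fold changes of 1.23 and 0.96 without overlap, at levels under 4 CPM. Mki67, the first member of the list, had a log2 fold change of -0.04.

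**Figure D4:**
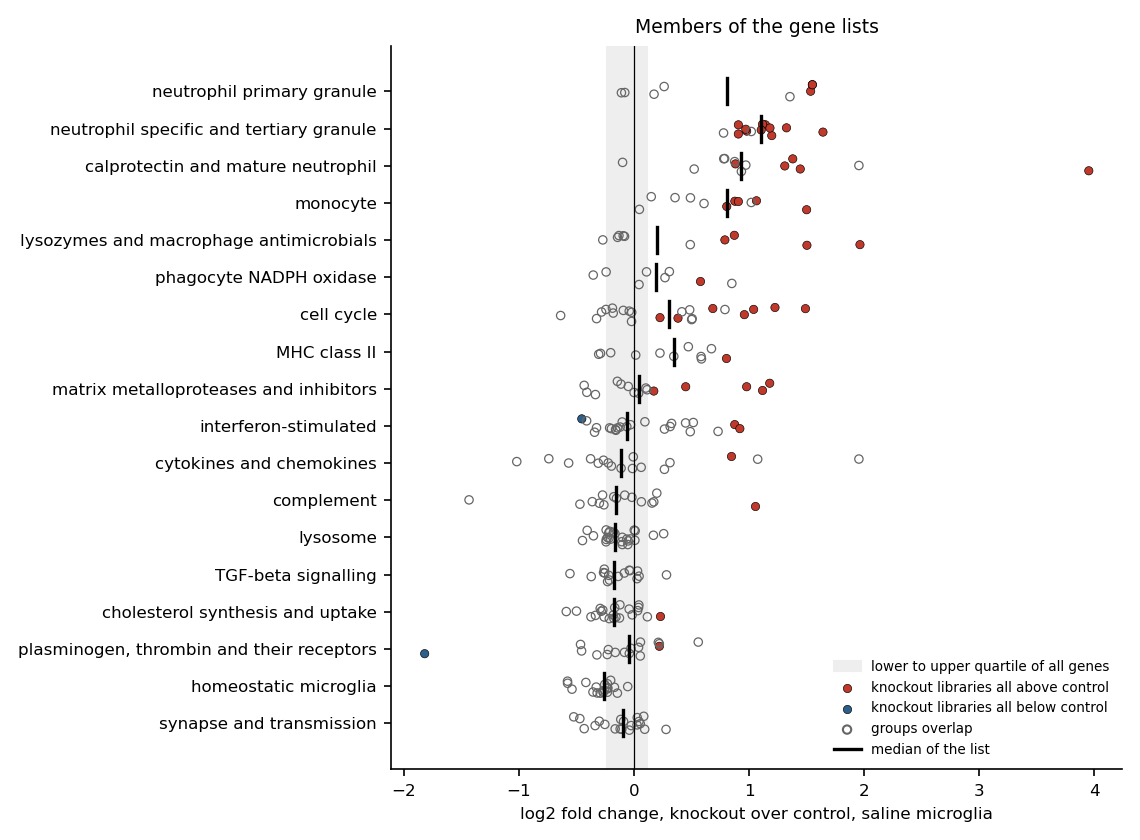
Fitted log2 fold change of knockout over control for the tested members of 18 lists, 1 point per gene, with filled points where the 3 knockout and 3 control libraries do not overlap, a black bar at the median of each list and a grey band from the lower to the upper quartile of all genes. The 3 neutrophil lists and the monocyte list have medians between 0.81 and 1.11, and the other 14 have medians between -0.26 and 0.35. The point near 4 is Stfa2, which had no read in the control libraries, so its position is not a measured fold.

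Homeostatic microglia genes were lower in fold change and overlapped in level. Of 20 tested, 0 were higher (42% of all genes were), and all 20 overlapped, the median being -0.26 with none at an unadjusted p under 0.05. P2ry12, the purinergic receptor that senses ADP, stood at 409.7, 197 and 186 CPM in knockout, against 382, 380.5 and 387 CPM in control. Tmem119, a surface marker of microglia, stood at 664, 265 and 186 CPM in knockout, against 758, 187 and 542 CPM in control. Gpr34, a lysophosphatidylserine receptor, stood at 103, 50.6 and 46.6 CPM in knockout, against 117, 72.4 and 108 CPM in control. Knockout 1 exceeded both other knockout libraries in 19 of the 20 genes, and knockouts 2 and 3 lay below all 3 controls in 12 of the 20. Of all 23250 genes tested without knockout 1, knockouts 2 and 3 lay below all 3 controls in 1334. The 20 genes summed to 13603, 6657 and 5615 CPM in knockout 1, 2 and 3, against 13597, 6333 and 9808 CPM in control 1, 2 and 3. Without knockout 1 the median was -0.71, with 10 of 20 lower at an unadjusted p under 0.05. In that fit 188 of all 23250 genes were lower at that threshold, and 0 genes were called. Without control 1 the list median was -0.01 with 10 of 20 higher, without knockout 2 it was -0.08 and without knockout 3 it was -0.05. The size of this difference therefore rested on which libraries were in the fit.

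Genes lower in knockout differed by less than those higher. Rpl10a, a protein of the large ribosomal subunit, had the smallest p after Serpine2 among those averaging at least 8 CPM. It stood at 16.7, 16.4 and 12.5 CPM in knockout, against 23.3, 22.2 and 27.8 CPM in control (log2 fold change -0.69, SE 0.21, unadjusted p = 0.00472). It has processed copies in the genome, so its counts are uncertain, and the 30 ribosomal protein genes listed had a median of 0.05. Top1mt, the mitochondrial topoisomerase, stood at 5.90, 8.03 and 7.47 CPM in knockout, against 10.2, 9.76 and 16.6 CPM in control. Slc30a6, a zinc transporter of the Golgi, stood at 21.2, 23.7 and 22.4 CPM in knockout, against 28.7, 27.0 and 43.2 CPM in control. Gipc1, a scaffold protein with a PDZ domain, stood at 10.8, 12.9 and 10.7 CPM in knockout, against 15.5, 13.7 and 23.1 CPM in control. In these 3 genes control 3 was the highest library, by a clear margin. Control 3 also led for Rab1b, a GTPase of transport from the endoplasmic reticulum, with 31.4, 33.3 and 29.8 CPM in knockout, against 50.1, 24.3 and 90.1 CPM in control, and the groups overlapped. Pxmp4, Fam149a, Rnaseh1 and Klhl21 were lower without overlap, and Fam160b2, Ppp1r1b and Rfng were lower with overlap, with log2 fold changes between -0.74 and -0.47. Ssb, the La RNA-binding protein, and Smc2, a condensin subunit, were lower without overlap (log2 fold changes -0.62 and -0.59) at an unadjusted p of 0.0764 and 0.11.

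Of 17 tested genes for plasminogen, thrombin and their receptors and inhibitors, 7 were higher and 10 lower, with a median of -0.04. The list does not hold Anxa2, described above. Besides Serpine2, 1 member did not overlap and none reached an unadjusted p of 0.05. F2r, which encodes the thrombin receptor PAR1, had a log2 fold change of -0.46. Of 10 other serpins, 3 were higher and 0 were without overlap, with a median of -0.17. Among 15 metalloproteases and inhibitors, 9 were higher, and the 3 at an unadjusted p under 0.05 were Mmp8, Mmp9 and Mmp25, all of which neutrophils express.

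The medians of the other programmes lay between -0.22 and 0.13, and several rested on 1 library. Interferon-stimulated genes were 10 of 23 higher with a median of -0.06, and Oasl2, an antiviral gene of the OAS family, was at 6.596, 8.03 and 8.73 CPM in knockout, against 3.28, 5.99 and 3.63 CPM in control. Cytokines and chemokines were 6 of 17 higher, with a median of -0.11. Il1b stood at 1.04, 2.40 and 4.71 CPM in knockout, against 0.864, 1.20 and 1.72 CPM in control, while Tnf stood at 0.347, 1.48 and 0.804 CPM, against 1.38, 1.54 and 2.63 CPM, and both overlapped. The NF-kB list was 8 of 18 higher with a median of -0.04, and the inflammasome list 4 of 13 with -0.09. Medians were -0.17 for TGF-beta signalling (4 of 16 higher), -0.16 for lysosome genes (5 of 25), -0.17 for cholesterol synthesis and uptake (5 of 22) and -0.14 for immediate early genes (5 of 20). They were 0.01 for oxidative phosphorylation (15 of 28), -0.02 for glycolysis (7 of 20), 0.01 for the unfolded protein response (9 of 17), 0.13 for heat shock genes (9 of 12) and -0.22 for histones (2 of 11). Phagocytic and Fc receptors had a median of 0.01 (10 of 20), genes of oxidative stress and iron -0.01 (11 of 22), glucocorticoid-responsive genes -0.04 (7 of 15) and mitochondrially encoded genes 0.03 (5 of 9). Synaptic genes had a median of -0.10 (7 of 20), collagens and matrix 0.01 (12 of 22) and myelin genes -0.03 (4 of 12). Without knockout 1 the median was -0.77 for mitochondrially encoded genes (0 of 9 higher), -0.40 for myelin genes (0 of 12), -0.46 for histones, -0.35 for both the inflammasome and the glucocorticoid-responsive list, -0.30 for phagocytic and Fc receptors and -0.24 for the unfolded protein response. Without control 1 it was 0.39 for mitochondrially encoded genes, 0.30 for myelin genes, 0.33 for glucocorticoid-responsive genes, 0.31 for the unfolded protein response and 0.081 for lysosome genes (18 of 25), which stood at -0.34 without control 2. The other lists named here had medians between -0.30 and 0.24 with any 1 saline library left out.

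By class of gene, the fold change was above 0 for 36.7% of 14894 protein-coding genes, 55.6% of 1759 processed pseudogenes and 56.4% of 1914 loci of the TEC class, which await experimental evidence. The knockout libraries lay above the control libraries for 1.93%, 3.98% and 3.71% of them in that order. Chromosome medians ran from -0.10 on chromosome 19 to -0.0027 on chromosome 14. Within 10 Mb of Serpine2 on chromosome 1, 182 other genes were tested, with a median of -0.08. Of these, 74 were higher (40.7%, against 42% of all genes). Without overlap, 5 were higher (2.75%, against 2.53% of all genes) and 3 lower (1.65%, against 1.71%). These shares were near those of all genes. Cxcr2 lies 5.64 Mb away and is described above. Fbxo36, an F-box gene, averaged 1.93 CPM in knockout and 3.53 CPM in control, and it overlaps Trip12 on the other strand. Sp100, a nuclear body protein, averaged 7.39 CPM in knockout and 4.12 CPM in control, and Nhej1, a DNA end-joining factor, 2.83 CPM and 4.46 CPM. None passed the adjusted threshold.

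The same contrast in mice given LPS used other libraries, 3 knockout and 3 control. Its fold change was above 0 for 11185 of 22230 genes (50.3%), and 0 genes were called there or in the difference between the injections. At an unadjusted p under 0.05 there were 335 genes for LPS and 251 for the difference, and DESeq2 called 1 gene in each. Lyz2 had nearly the same value, 0.79 in saline and 0.80 in LPS, as did Chil3 with 1.02 and 1.08. Monocyte markers had a median of 0.81 in saline and 0.66 in LPS, with 11 of 11 higher in both. Neutrophil lists differed. Primary granule genes had a median of 0.81 in saline and -0.92 in LPS, with 1 of 8 higher in LPS, specific and tertiary granule genes 1.11 and 0.10, and calprotectin and mature neutrophil genes 0.93 and 0.29, with 11 of 13 higher in LPS. Camp was 1.33 in saline and -1.21 in LPS (difference 2.54, SE 0.46, unadjusted p = 6.53e-05, adjusted p = 0.9999), and Mpo was 1.54 and -1.03 (difference 2.57, unadjusted p = 6.89e-04, adjusted p = 0.9999). S100a8 was 1.45 and 0.04, with a difference of 1.41 at an unadjusted p of 0.00879. Of the 16 genes named for p or fold that were higher in saline, 11 were also above 0 in LPS. Of the 15 named as lower, 10 were also below 0, Serpine2 itself among them. Without LPS control 1, edgeR called Serpine2 in LPS and no gene in the difference, with 155 and 205 genes at an unadjusted p under 0.05. The LPS medians were then -0.84 for primary granule genes (1 of 8 higher), -0.06 for specific and tertiary granule genes (6 of 13), 0.0035 for calprotectin and mature neutrophil genes (7 of 13) and 0.56 for monocyte markers (11 of 11). The LPS fold change of Camp was -1.19 (difference 2.54), that of Mpo -0.83 (difference 2.39), that of Lyz2 0.70, that of Chil3 0.83 and that of S100a8 -0.17 (difference 1.64), the last on the other side of 0.

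**Figure D5:**
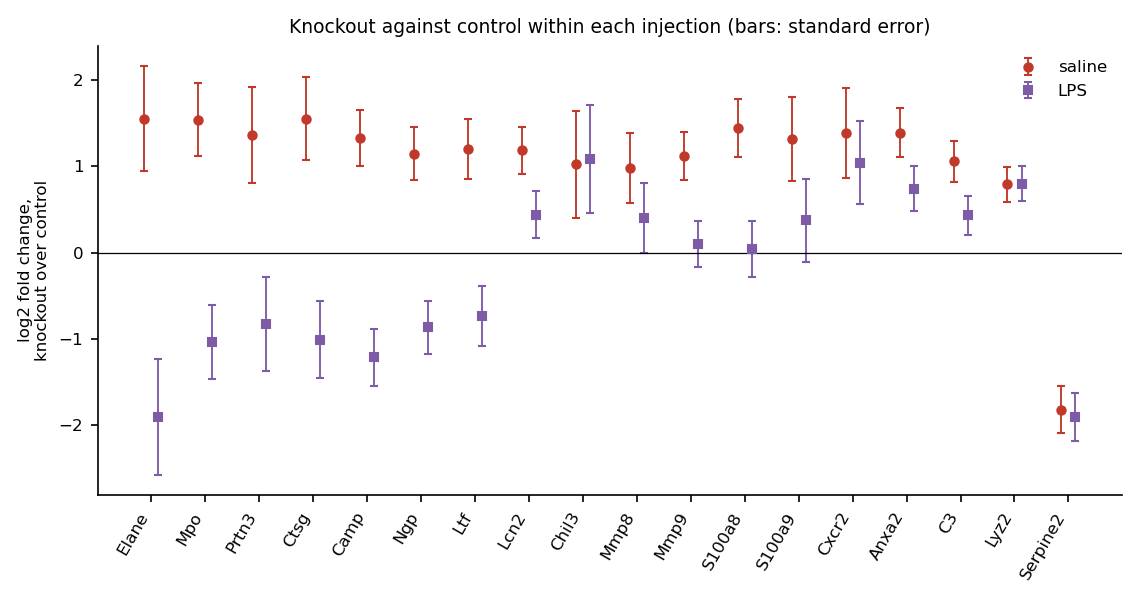
Fitted log2 fold change of knockout over control in saline microglia (red circles) and LPS microglia (purple squares) for 18 genes, with bars of 1 SE. Primary granule genes and Camp, Ngp and Ltf lie above 0 in saline and below 0 in LPS, while Chil3, Cxcr2 and Lyz2 lie above 0 and Serpine2 below 0 in both.

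Saline astrocytes, taken from cortex, gave side values for the genes that passed the count filter there. C3 had a log2 fold change of 1.22 and Slpi 1.20, S100a8 0.11, Lcn2 -0.01 and Lyz2 -0.16, none of them called. Camp, Ngp, Ltf, Mpo, Elane, Mmp9, Prg2 and Cxcr2 did not pass that filter.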

How the data were processed

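RNA was sequenced from immunopanned microglia and astrocytes, and the deposited values are raw read counts per Ensembl gene, without normalisation by the authors. The submitters' processing notes list STAR 2.6.0c and HTSeq (version not given). The notes name GRCm38 and GRCm39 without roles and no strand setting is given in the sources used here. Antisense and overlapping genes are therefore uncertain, among them Anxa2, Mpo, Prtn3, Sp100 and Ikbke. Symbols came from a reference table (52093 of 53700 microglia identifiers), and coordinates from GENCODE M21 on GRCm38. Rows that name no gene were left out of library sizes.

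The 12 microglia libraries (4 groups of 3) were fitted together with edgeR 4.0.16 under R 4.3.3, by robust quasi-likelihood with TMM factors. Genes were kept by filterByExpr (minimum count 10, minimum total 15). Tests were two-sided with Benjamini-Hochberg adjustment over all 22230 genes at a threshold of 0.05. The 12 astrocyte libraries were fitted the same way. The code was tested on simulated data. Log2 CPM for principal components used a prior count of 2. Alternatives were RLE factors, DESeq2 1.42.0, no filter, a minimum count of 50, sex as a covariate, a replicate block, the compared groups alone, and each library left out. Where nothing says that libraries came from separate mice, p-values measure only the spread between these libraries, and they cover counting error of reads without molecular identifiers. The library numbers were not used to pair samples.

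Members and the 36 gene lists and 15 marker lists were chosen with earlier results of these data known. Named genes were Serpine2, up to 12 genes per direction with the smallest p and up to 8 with the largest fold without overlap (at least 8 CPM on average and no predicted symbol), the first 2 members of each list with up to 4 of smallest p, and up to 6 genes within 10 Mb of Serpine2. Some genes that this rule names are not reported here. Outside this rule and after their values were seen, BC100530, Capn11, Chil1, Chil3, Clec4e, Csf3r, Fbxl15, Gh, Ifitm6, Igha, Mpeg1, Prl, Stfa2, Wfdc17 and Zfp768 were named as well. Promoters were read from RefSeq windows (GRCm38.p6) and searched on both strands.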

Additional observations from a re-analysis of the deposited data

Results flagged for a closer look

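In 5 of the genes picked by the naming rule, the knockout and control libraries did not overlap in either injection and lay in opposite order in saline and in LPS. Over all 22230 genes tested, 41 (0.184%) did so. They were 24 of the 563 genes higher without overlap in saline knockout, and 17 of the 380 lower. The naming rule favours genes with a small p or no overlap in saline, so the 5 cannot be read against the share of all genes. The difference of the fold changes, saline minus LPS, was not called in any of them by edgeR's quasi-likelihood test (adjusted p = 0.9999 each).

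Camp had 10.1, 28.2 and 10.7 CPM in the LPS knockout libraries, against 38.2, 34.0 and 38.8 CPM in the LPS control libraries, the opposite of saline, and its difference was 2.54 on the log2 scale. Ngp had 64.1, 113 and 42.0 CPM in LPS knockout, against 123, 138 and 136 CPM in LPS control, with a difference of 2.01. Elane had 0.376, 3.82 and 0.619 CPM in LPS knockout, against 6.33, 4.29 and 4.62 CPM in LPS control, with a difference of 3.45. In all 3 genes LPS knockout 2 was the highest of its group.

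Ikbke, a kinase of the interferon and NF-kB pathways, went the other way. It had 2.26, 4.43 and 4.25 CPM in saline knockout, against 4.84, 4.62 and 5.90 CPM in saline control, and 20.2, 17.6 and 21.9 CPM in LPS knockout, against 10.3, 11.6 and 15.7 CPM in LPS control, a difference of -1.14. Mir6352, whose annotated interval lies inside Epha4 on the same strand, had a difference of 1.09 at levels between 1.45 and 4.08 CPM.

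LPS control 1, whose sex-linked transcripts went against its label, enters these values. Without it the groups still did not overlap in LPS in the 5 genes, and the difference was 2.54 for Camp, 2.09 for Ngp, 3.29 for Elane, -0.99 for Ikbke and 1.14 for Mir6352.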

How the results depend on the processing

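The number of genes called in saline microglia, 0, was 1 (Serpine2) by DESeq2, 22 with no filter, and 0 to 1 with each library left out (1 without control 2). With a replicate block it was 0, as were the LPS contrast and the difference, and Serpine2 was -1.75. Deviations of same-numbered saline libraries correlated at 0.44, -0.09 and -0.11, and only the pair numbered 1 correlated best with its own number. In LPS the values were -0.17, -0.09 and 0.32, and only the pair numbered 3 did so. With so few libraries these values cannot settle whether the numbers mark pairs. Serpine2 was -1.79 by DESeq2 and -1.78 with no filter, both called, and -1.98 to -1.49 with each library left out. LPS calls, 0 with the filter, were 1 by DESeq2, 19 with no filter and 0 to 1 with a library left out. Calls of the difference, likewise 0, were 1, 7 and 0 to 1. Astrocyte calls, 1 with the filter, were 2 by DESeq2, 8 with no filter and 1 to 1 with a library left out. Of 85 other genes named, 73 kept their direction under every alternative that gave a value. BC100530 was 0 without knockout 3. The other 11 turned with a library left out, over these ranges: C1qa -0.88 to 0.052, C1qb -0.78 to 0.13, Capn11 -2.39 to 0.56, Ccr2 -0.17 to 0.87, Cebpa -0.40 to 0.38, Csf3r -0.34 to 0.091, F2r -0.74 to 0.11, Mki67 -0.15 to 0.15, Mpeg1 -0.50 to 0.12, Tmem119 -1.08 to 0.10 and Trem2 -0.56 to 0.19. BC100530 ranged over 0 to 2.58. Of 663 alternative values of list medians, 26 moved by more than the spread between libraries. The median of all genes lay between -0.05 and 0.01 under the settings run. The sex covariate took sexes from the labels, LPS control 1 included. The cause of these shifts was not tested.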

Other observations

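Among the genes called only without the filter on low counts, a pair encode pituitary hormones. Gh (growth hormone) had 1360 counts in knockout 3 and 206 counts in control 3, and 0 in the other 4 libraries. Prl (prolactin) had 236 counts in knockout 3 and 16 counts in control 3, and 0 in the other 4. A count of 0 allows up to 3 counts, or 0.28 to 0.56 CPM before TMM scaling in those libraries. Ttr, the thyroid hormone carrier made by choroid plexus, was higher without overlap, at 97.7, 63.8 and 62.4 CPM in knockout, against 39.2, 26.0 and 44.3 CPM in control (log2 fold change 1.03, SE 0.31, unadjusted p = 0.00442). The other 6 tested choroid plexus and ependyma markers overlapped, with a list median of 0.14.

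Igha, the constant region of the immunoglobulin A heavy chain, had 57, 5 and 32 counts in knockout, against 4, 8 and 13 counts in control, with overlapping groups. Wfdc17, a small whey acidic protein family gene, had 14, 35 and 90 counts in knockout, against 6, 13 and 14 counts in control. Clec4e, the receptor Mincle, had 5, 22 and 28 counts in knockout, against 2, 3 and 4 counts in control. Capn11, a calpain, had 7, 15 and 14 counts in knockout, against 3, 8 and 156 counts in control, so its lower value rested on control 3.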
